A study of Mus musculus with 6 samples.

Results

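Brain pericyte marker genes were followed in whole-brain RNA of mouse embryos late in gestation (E18.5), with 3 wild-type and 3 Foxf2 mutant samples, all on a C57/bl6 background and each on 1 Affymetrix array. The 10 genes were Rgs5, Kcnj8, Abcc9, Cspg4, Anpep, Vtn, Higd1b, Ndufa4l2, Cox4i2 and Atp13a5, chosen by name as markers of the cell type, out of 18193 genes with a singly annotated probe set. Every probe set annotated to exactly 1 of these genes was taken, which gave 18 probe sets. The labels name the mutant genotype only as Foxf2 mutant and do not describe the allele or the litters, so each p-value refers only to the variation among the 6 samples, which may be partly technical.

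Pericytes are mural cells that wrap brain capillaries inside the vascular basement membrane, and are drawn to the endothelium by PDGF-B acting on their receptor Pdgfrb. In the brain they are known for supporting the formation of the blood-brain barrier before birth. Foxf2 encodes a forkhead transcription factor made in brain pericytes, and the comparison asks how brain transcripts differ when it is mutated. In whole-brain RNA, fewer cells of a type and less RNA per cell cannot be told apart, so none of the values below separates the number of pericytes from their state of differentiation.

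Among the markers bright enough to be tested, Atp13a5 had the largest log2 difference with the offset of 16, and Rgs5 the largest with an offset of 64. Atp13a5 read lower in the mutant brains on both of its probe sets, while Rgs5, the brightest marker, had smaller lower readings. Abcc9 had a log2 difference of only -0.08 on its brightest probe set and read lower mainly on its dimmer ones. Ndufa4l2 read higher in the mutant, and Vtn, Kcnj8, Higd1b and Cspg4 had group means close together or probe sets of opposite sign. No marker passed the threshold, an adjusted p of 0.05 in limma over all 27022 tested probe sets, where 200 did (0.74%). The tested markers gave 0 of 16, with adjusted p from 0.122 to 0.903.

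Values are MAS5 intensities, in which the authors had scaled the arrays to a common trimmed mean. Medians of whole arrays ran from 23.1 to 23.6 in wild type and from 24.3 to 25.5 in the mutant, and 41.5% to 44.0% of probe sets on an array read below 16. The floor of the array was described with 34 genes of other adult organs, such as milk, sperm, egg and pancreas proteins. Their median intensity was 3.77 to 7.15, and their 90th percentile 16.7 to 24.9, over the 6 arrays. The brightest of these genes was Krt10, a skin keratin, with a mean of 190.0, so a few of them carried signal. Single arrays also differed in transcripts of other tissues and of the Y chromosome. Skeletal muscle Acta1 read 741 on mutant array 3 and at most 77.0 elsewhere. Pituitary Gh read 1590 on wild-type array 3, 203 on mutant array 3 and at most 23.8 elsewhere. The Y-linked Eif2s3y read 260 on mutant array 2 and at most 2.12 elsewhere.

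Foxf2 itself read 18.6, 24.4 and 13.8 on the wild-type arrays and 8.06, 3.31 and 7.57 on the mutant arrays with its brighter probe set. The groups did not overlap, but the probe set lay below the filter on dim probe sets (a mean intensity of 13.5), and its adjusted p without the filter was 0.173 (limma). This probe set exceeded the 90th percentile of the floor genes on only 1 of 6 arrays. The allele is not described in the labels, so whether the probe set lies in the altered part of the gene is not known.

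Of the 18 marker probe sets, 14 read above the 90th percentile of the floor genes on all 6 arrays. These were all probe sets of Rgs5, Kcnj8, Abcc9, Vtn, Higd1b and Ndufa4l2 and both of Cspg4. The 4 others belonged to Atp13a5, Anpep and Cox4i2. The bright Atp13a5 probe set exceeded that bound on 4 of 6 arrays and the dim one on 3 of 6, while Anpep and Cox4i2 exceeded it on 0 of 6. Anpep and Cox4i2 were also below the filter, so 8 of the 10 genes, with 16 probe sets, were tested.

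**Figure D1:**
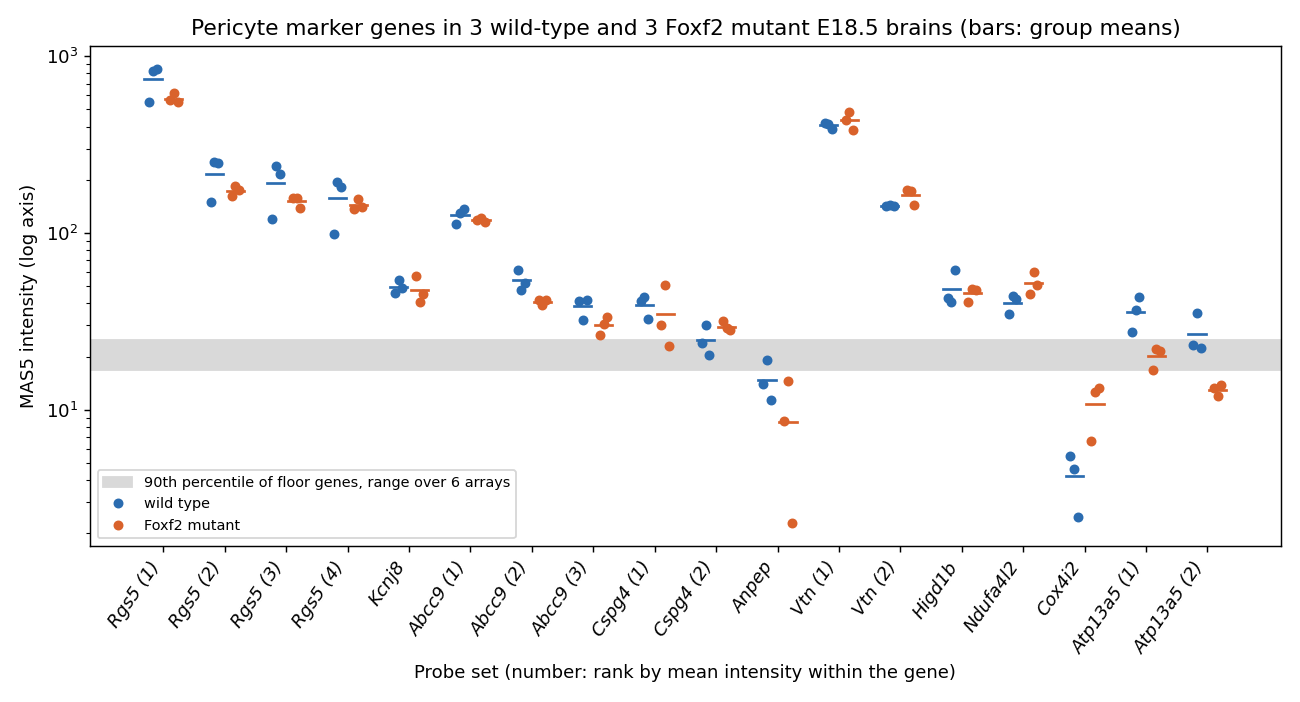
MAS5 intensity of the 18 marker probe sets on a log axis, with 1 point per array (wild type blue, Foxf2 mutant orange), short bars for the group means and a grey band for the 90th percentile of the floor genes on the 6 arrays (16.7 to 24.9). Rgs5 and Vtn stand far above the band, Anpep and Cox4i2 lie mostly below it, and the mutant points of Atp13a5 lie within or below it.

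Atp13a5 encodes a P5-type transport ATPase, used as a selective marker of brain pericytes. Its brighter probe set, 1436411_at, read 27.4, 36.6 and 43.7 on the wild-type arrays and 16.8, 22.1 and 21.6 on the mutant arrays. Every mutant array lay below every wild-type array. The means were 35.9 ± 8.16 and 20.2 ± 2.94 (SD, n = 3 each), a log2 difference of -0.51 ± 0.15 (SE) in intensity plus 16 (limma, 95% interval -0.83 to -0.19, adjusted p = 0.151). The second probe set, 1439172_at, read 23.1, 35.2 and 22.3 in wild type and 13.2, 11.9 and 13.8 in the mutant, again without overlap. Its means were 26.9 ± 7.21 and 13.0 ± 0.974 (SD, n = 3 each), a log2 difference of -0.55 ± 0.15 (SE; limma, 95% interval -0.87 to -0.23, adjusted p = 0.122).

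Both probe sets of Atp13a5 missed the threshold. The mutant values of the dimmer one all lay below the 90th percentile of the floor genes. Those of the brighter one lay near that bound, below it on mutant arrays 1 and 2 and above it on mutant array 3 (21.6 against 20.3). The second probe set passed the filter only through its wild-type values, since its mutant mean of 13.0 was under 13.5, so its interval and adjusted p add no support to the first. The offset sets the size so close to the floor: the brighter probe set gave -0.79 with an offset of 1 and -0.24 with an offset of 64, and the dimmer one -0.97 and -0.24. At the offset of 64 the brightest Rgs5 probe set had -0.31. Of the other ATPases of this family, Atp13a1 had a log2 difference of -0.14, Atp13a2 of -0.07, Atp13a3 of 0.08 and Atp13a4 of 0.29, none past the threshold. The sign of Atp13a3 turned with median centring.

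Rgs5 encodes a regulator of G protein signalling that is abundant in mural cells of brain capillaries. Its brightest probe set, 1417466_at, read 549, 822 and 851 on the wild-type arrays and 564, 616 and 548 on the mutant arrays. Wild-type array 1 read as low as the mutants, so the groups overlapped. The means were 741 ± 167 and 576 ± 35.6 (SD, n = 3 each), with a log2 difference of -0.33 ± 0.14 (SE; limma, 95% interval -0.64 to -0.02, adjusted p = 0.324).

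The other Rgs5 probe sets gave a like order of the arrays. Probe set 1420942_s_at read 149, 251 and 249 in wild type and 163, 184 and 174 in the mutant. Probe set 1420940_x_at read 120, 239 and 217 against 157, 158 and 139. Probe set 1420941_at read 98.4, 195 and 182 against 136, 155 and 140. On each of the 3, wild-type array 1 was the lowest of all arrays and wild-type arrays 2 and 3 the highest. Their log2 differences were -0.26, -0.27 and -0.08, with adjusted p of 0.51, 0.576 and 0.892 (limma). Without wild-type array 1 the difference of the brightest probe set was -0.53 (adjusted p = 0.054) and those of the others -0.49, -0.54 and -0.36. Without wild-type array 3 that of the brightest was -0.22, and without wild-type array 2 those of the others were -0.14, -0.09 and 0.09. The relatives Rgs4 and Rgs16 had -0.03 and 0.44 on their brightest probe sets, neither past the threshold, and a second Rgs16 probe set read lower in the mutant without overlap.

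The sequences upstream of the start sites of Atp13a5 and Rgs5, the markers with the lowest log2 differences among those tested, are shown because forkhead factors as a family bind a core of TAAACA. Vtn, the brightest marker with a higher mutant mean, is set beside them. Each is the 250 bases before the start site from RefSeq in GRCm38.p6, written 5′ to 3′ on the gene's strand: chr16:29378733-29378982 (minus strand) for Atp13a5, chr1:169655251-169655500 (plus) for Rgs5 and chr11:78498870-78499119 (plus) for Vtn. Capitals mark TAAACA and, in Atp13a5, the overlapping GTAAATA.
Atp13a5: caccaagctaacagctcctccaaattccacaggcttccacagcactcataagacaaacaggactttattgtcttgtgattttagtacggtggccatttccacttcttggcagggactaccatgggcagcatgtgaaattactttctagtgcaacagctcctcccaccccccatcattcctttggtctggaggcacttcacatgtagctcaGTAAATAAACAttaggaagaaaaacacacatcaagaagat
Rgs5: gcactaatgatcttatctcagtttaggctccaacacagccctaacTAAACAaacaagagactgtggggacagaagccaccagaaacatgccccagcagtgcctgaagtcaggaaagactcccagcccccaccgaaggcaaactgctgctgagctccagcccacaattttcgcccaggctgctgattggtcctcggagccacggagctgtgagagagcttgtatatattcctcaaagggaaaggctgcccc
Vtn: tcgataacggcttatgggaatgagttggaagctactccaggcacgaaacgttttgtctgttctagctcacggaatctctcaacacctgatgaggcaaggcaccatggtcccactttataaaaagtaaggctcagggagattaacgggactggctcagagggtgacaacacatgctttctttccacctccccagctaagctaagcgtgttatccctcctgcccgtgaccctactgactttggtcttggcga

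The core TAAACA was searched on both strands. The same search was made for GTAAACA, which contains the core, and for GTAAATA, which can overlap it at its last bases. Of the 10 markers, 7 were matched in the promoter table, and Higd1b, Ndufa4l2 and Cox4i2 were not. TAAACA was found in 2 of the 7, Atp13a5 (starting 35 bases before the start site) and Rgs5 (205 bases before it), against 12.0% of all 32851 promoter windows of this length. GTAAATA was found in 1 of the 7, Atp13a5, against 2.73% of all windows, and GTAAACA in 0 of 7 against 3.17%. In Atp13a5 the GTAAATA match overlaps the TAAACA match, so the counts for these motifs are not independent. A match describes these letters only.

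Kcnj8 and Abcc9 are neighbouring genes that encode the pore and the sulfonylurea receptor of the KATP channel of mural cells. Kcnj8 read 45.8, 54.3 and 49.1 on the wild-type arrays and 57.1, 40.9 and 45.1 on the mutant arrays. The highest and the lowest reading were both mutant, and the log2 difference was -0.05 ± 0.13 (SE; limma, 95% interval -0.33 to 0.23, adjusted p = 0.891). The brightest Abcc9 probe set, 1435752_s_at, read 113, 129 and 137 in wild type and 119, 121 and 115 in the mutant, with overlap and a log2 difference of -0.08 ± 0.10 (SE; limma adjusted p = 0.765).

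The other Abcc9 probe sets stood further from 0. Probe set 1435751_at read 61.8, 47.8 and 52.2 in wild type and 41.9, 39.2 and 41.7 in the mutant, without overlap. Its log2 difference was -0.29 ± 0.12 (SE; limma, 95% interval -0.55 to -0.04, adjusted p = 0.285). Probe set 1420408_a_at read 41.2, 32.4 and 41.9 against 26.4, 30.6 and 33.5, with overlap (log2 difference -0.24, limma adjusted p = 0.429). The sizes differed among the 3 Abcc9 probe sets, and the difference between them was not tested. The channel subunits of neurons and the pancreas, Kcnj11 and Abcc8, had log2 differences of 0.23 and -0.20, neither past the threshold.

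Cspg4, Anpep and Vtn encode proteins of the pericyte surface and matrix. Cspg4, the NG2 proteoglycan, read 41.3, 43.4 and 32.7 in wild type and 30.3, 50.8 and 22.9 in the mutant on probe set 1423341_at. The mutant arrays spanned the wild-type range, and the log2 difference was -0.15 ± 0.19 (SE; limma, 95% interval -0.57 to 0.26, adjusted p = 0.757). Its second probe set, 1450944_at, read 23.8, 30.1 and 20.5 in wild type and 31.7, 28.9 and 28.1 in the mutant, with overlap and a difference of opposite sign, 0.17 ± 0.13 (SE; limma adjusted p = 0.60).

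Cspg4 is also made by oligodendrocyte precursors. Of 8 markers of those cells past the filter 0 passed the threshold and 7 read higher in the mutant (5 with median centring). The largest differences were those of Sox10 (0.35) and Tnr (0.22). Sox10 exceeded the 90th percentile of the floor genes on only 2 of 6 arrays. The summed intensity of the 8 precursor markers was 1190 to 1680 in wild type and 1330 to 1680 in the mutant. Their part in the Cspg4 readings was not tested.

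Vtn encodes vitronectin, a matrix protein that binds integrins. Its brighter probe set, 1420484_a_at, read 418, 415 and 388 in wild type and 435, 486 and 383 in the mutant. The groups overlapped through mutant array 3, and the log2 difference was 0.09 ± 0.09 (SE; limma, 95% interval -0.12 to 0.29, adjusted p = 0.72), which turned to -0.000782 with median centring. The second probe set, 1455098_a_at, read 142, 144 and 142 against 175, 173 and 144, with mutant array 3 again at the wild-type level (log2 difference 0.17 ± 0.10, SE; limma adjusted p = 0.455).

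Anpep, aminopeptidase N, read 13.9, 19.0 and 11.3 in wild type and 8.69, 14.5 and 2.29 in the mutant. All 6 values lay below the 90th percentile of the floor genes, so no fold is given, and the fit without the filter gave an adjusted p of 0.529 (limma). The lowest Anpep reading and the lowest Cspg4 reading of probe set 1423341_at were both on mutant array 3, the array with the high muscle signal. Whether these go together was not tested.

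Higd1b, Ndufa4l2 and Cox4i2 encode small mitochondrial proteins, the last 2 being alternative forms of respiratory chain subunits with the common forms Ndufa4 and Cox4i1. Ndufa4l2 read 34.8, 43.9 and 42.4 on the wild-type arrays and 45.1, 60 and 50.7 on the mutant arrays. Every mutant array lay above every wild-type array, by a small margin at the nearest pair. The means were 40.4 ± 4.84 and 51.9 ± 7.54 (SD, n = 3 each), a log2 difference of 0.27 ± 0.13 (SE; limma, 95% interval -0.01 to 0.55, adjusted p = 0.372).

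Cox4i2 read 5.51, 4.60 and 2.47 in wild type and 6.66, 12.6 and 13.2 in the mutant. The groups did not overlap, but every value lay below the 40th percentile of its array and below the 90th percentile of the floor genes. No fold is given for it, and the fit without the filter gave an adjusted p of 0.307 (limma). Higd1b, a hypoxia-inducible domain protein, read 42.8, 40.9 and 61.6 against 40.7, 48.5 and 47.9, with overlap and a log2 difference of -0.05 ± 0.14 (SE; limma, 95% interval -0.36 to 0.26, adjusted p = 0.903).

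The common relatives of these mitochondrial genes were bright and had differences near 0, with Cox4i1 at 0.04, Ndufa4 at -0.06 and Higd1a at -0.06. That of Cox4i1 turned with median centring and with quantile normalization. Ndufa4l2 is known to be induced in low oxygen. Of 14 hypoxia genes past the filter 0 passed the threshold, 9 read lower and 5 higher, and the median log2 difference was -0.06. With median centring 11 read lower and 3 higher, with a median of -0.145. The largest were those of the histone demethylase gene Kdm3a (-0.35) and the glycolytic regulator gene Pfkfb3 (-0.25).

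**Figure D2:**
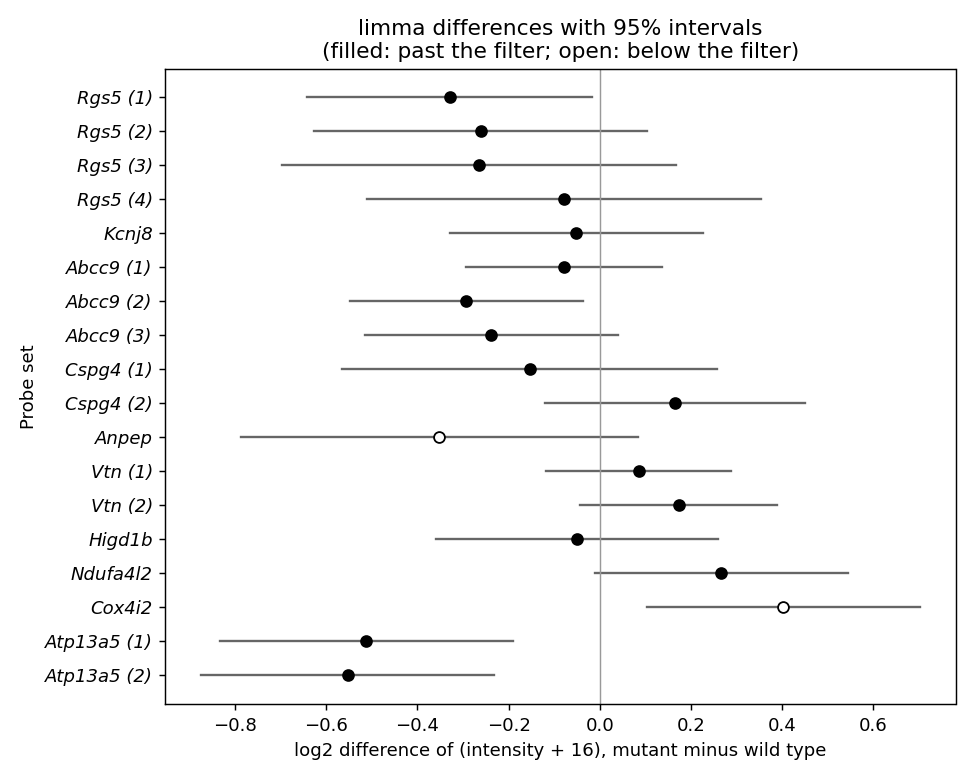
log2 difference in intensity plus 16, mutant minus wild type, for each marker probe set with its 95% limma interval, filled where the probe set was past the filter and open where it was not. The unadjusted intervals of both Atp13a5 probe sets, the brightest Rgs5 probe set and the second Abcc9 probe set lie below 0, while those of the other tested probe sets include 0.

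Over the 16 tested marker probe sets, 12 had a lower and 4 a higher mean in the mutant, with a median log2 difference of -0.12 against -0.01 over all tested probe sets, of which 51.4% read lower. With median centring, which put the median of all tested probe sets at -0.08, 13 of the 16 had a lower mean, as Vtn turned on 1 probe set. Groups did not overlap for 4 of the 16 (25.0%), Atp13a5 on both probe sets and Abcc9 on 1 below, and Ndufa4l2 above, where 20.3% of all tested probe sets did not overlap. Beside the count of 0 past the limma threshold, 4 of 16 had an unadjusted p under 0.05, all lower, where 14.2% of all tested probe sets did in either direction and 5.78% lower. In each count the 4 belong to 3 genes, and probe sets of a gene read the same RNA. The dimmer Atp13a5 probe set is in both counts and passed the filter only through its wild-type values, so the counts and the median describe the tested probe sets and support no shift. The 95% intervals, not adjusted for the number of tests, reached from 0.203 to 0.432 on either side of the log2 difference, with a median of 0.297.

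To describe the markers beside each other, each of the 8 tested genes was set against the mean of the other 7 on the same array, on the log2 scale with the brightest probe sets. Relative to the others, Atp13a5 stood at -1.45, -1.34 and -1.17 on the wild-type arrays and -1.90, -1.82 and -1.64 on the mutant arrays, a difference of -0.47 without overlap. Ndufa4l2 stood at -1.19, -1.13 and -1.20 against -0.88, -0.69 and -0.69, a difference of 0.42 without overlap. The other 6 genes overlapped between groups, with relative differences from -0.26 for Rgs5 to 0.21 for Vtn, and 0.03 for Abcc9, 0.06 for Kcnj8, 0.06 for Higd1b and -0.06 for Cspg4. These values share arrays and each is part of the reference of the others, and no difference between markers was tested. Groups did not overlap for 2 of the 8 genes on this relative scale. The 20.3% given above is for intensities of single probe sets, and no such share was taken for relative levels. The value of Atp13a5 depends on the offset.

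**Figure D3:**
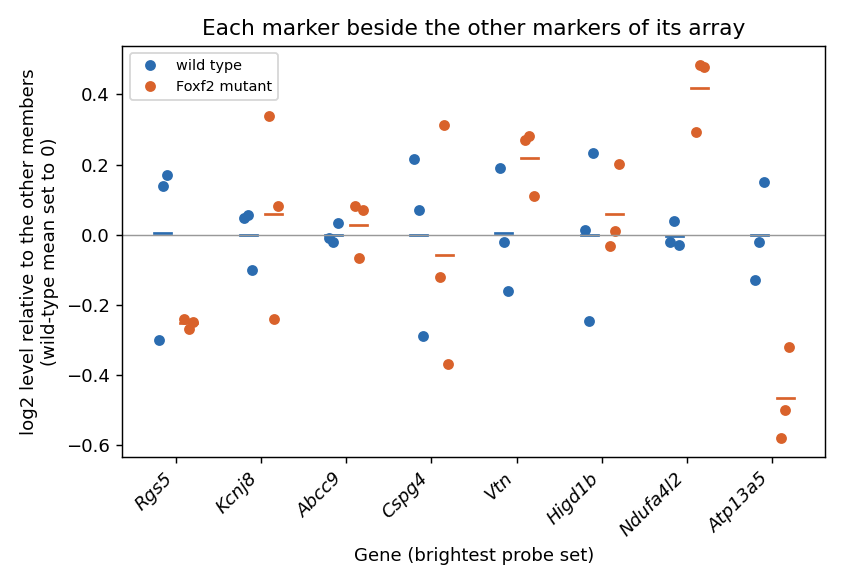
log2 level of each tested marker relative to the mean of the other 7 markers on the same array, with the wild-type mean of each gene set to 0, 1 point per array and bars for group means. All 3 mutant points lie below wild type for Atp13a5 and above it for Ndufa4l2, and the groups overlap for the other 6 genes.

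Pdgfrb, the receptor through which pericytes are recruited, read 159, 154 and 162 in wild type and 134, 141 and 119 in the mutant on its brighter probe set. The groups did not overlap, and the log2 difference was -0.25 ± 0.09 (SE; limma, 95% interval -0.45 to -0.04, adjusted p = 0.27). Its second probe set had -0.18 with overlap (limma adjusted p = 0.56). Among 24 other mural and pericyte genes past the filter, Pdgfrb included, 1 rose, 0 fell and 23 did not pass, with a median log2 difference of 0.04, or -0.01 with median centring. The summed intensity of the 26 genes of the list with a probe set was 4920 to 5270 in wild type and 5980 to 6290 in the mutant, without overlap. This sum is weighted to the brightest genes of the list, Ptn and Zic1, and does not describe the list as a whole. The one that rose was Ptn, pleiotrophin, a growth factor also made by neural cells, with a mean of 1490 in wild type and 2290 in the mutant (log2 difference 0.62, limma adjusted p = 0.00876, higher in 3 of 3 mutant arrays). Its other probe sets had -0.07 and 0.09, and the call was lost without the variance trend (adjusted p = 0.0693). Zic1, named after its value was seen, had a mean of 1440 in wild type and 1670 in the mutant on its brighter probe set. Zic1 passed the threshold on neither probe set (log2 differences 0.21 and 0.29, limma adjusted p = 0.207 and 0.0505). On both, every mutant array lay above every wild-type array.

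Of 17 genes that signal in pericyte recruitment and maturation, among them Pdgfb, Angpt1, Tgfb1 and Notch3, 0 passed the threshold. The median log2 difference was 0.07, or -0.01 with median centring, and the largest were those of the TGF-beta receptor gene Tgfbr2 (0.26) and the angiopoietin receptor gene Tek (-0.26). Pdgfb, the ligand from endothelium, named after its value was seen, had -0.19 (limma adjusted p = 0.475) on its brighter probe set and 0.17 on the other (adjusted p = 0.636).

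Markers of the neighbouring vascular cells gave the following beside the pericyte genes. Of 8 smooth muscle genes past the filter 0 passed, with Tpm2 at 0.34, Myl9 at -0.21 and a median of 0.01, or -0.07 with median centring. The summed intensity of the 11 smooth muscle genes with a probe set, those below the filter included, was 516 to 546 in wild type and 478 to 570 in the mutant. Of 14 fibroblast and meningeal genes 0 passed, 11 read higher (8 with median centring), and the median was 0.11 (0.022 with median centring), with Mgp at 0.29 and Foxc2 at 0.28. Their summed intensity was 5390 to 6020 and 5490 to 6310.

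Of 19 endothelial genes 1 fell, 0 rose and 18 did not pass, with a median of -0.01, or -0.06 with median centring and with quantile normalization. Slco1c1, which carries thyroid hormone across the barrier, fell by 0.75 on the log2 scale (limma adjusted p = 0.0366, lower in 3 of 3 mutant arrays), a call lost without any 1 of the 6 arrays (adjusted p from 0.0543 to 0.141), without the filter, without the trend, and with the variance trend fitted on all probe sets (adjusted p = 0.0652). The summed intensity of the endothelial genes was 1870 to 1900 in wild type and 1470 to 1620 in the mutant, without overlap. Bright genes weigh most in this sum, Slco1c1, Cldn5 and Kdr among them, so it does not describe the endothelial genes as a whole. The mean of Slco1c1 was 384 in wild type and 224 in the mutant. The tight junction gene Cldn5 (380 and 278, limma adjusted p = 0.0504) and the VEGF receptor gene Kdr (153 and 112, adjusted p = 0.132) did not pass the threshold and were named after their values were seen. Of the 19 genes, 11 read lower and 8 higher in the mutant (6 higher with median centring, 7 with quantile normalization). Groups did not overlap for 7 genes below and 1 above, where 20.3% of all tested probe sets did not overlap in either direction. An unadjusted limma p under 0.05 was found for 4, all lower, where 5.78% of all tested probe sets were lower at that p. The list was chosen with earlier results of these data known, so these counts only describe it. Whether the endothelial genes go with the readings of Atp13a5, Rgs5 and Abcc9 was not tested.

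**Figure D4:**
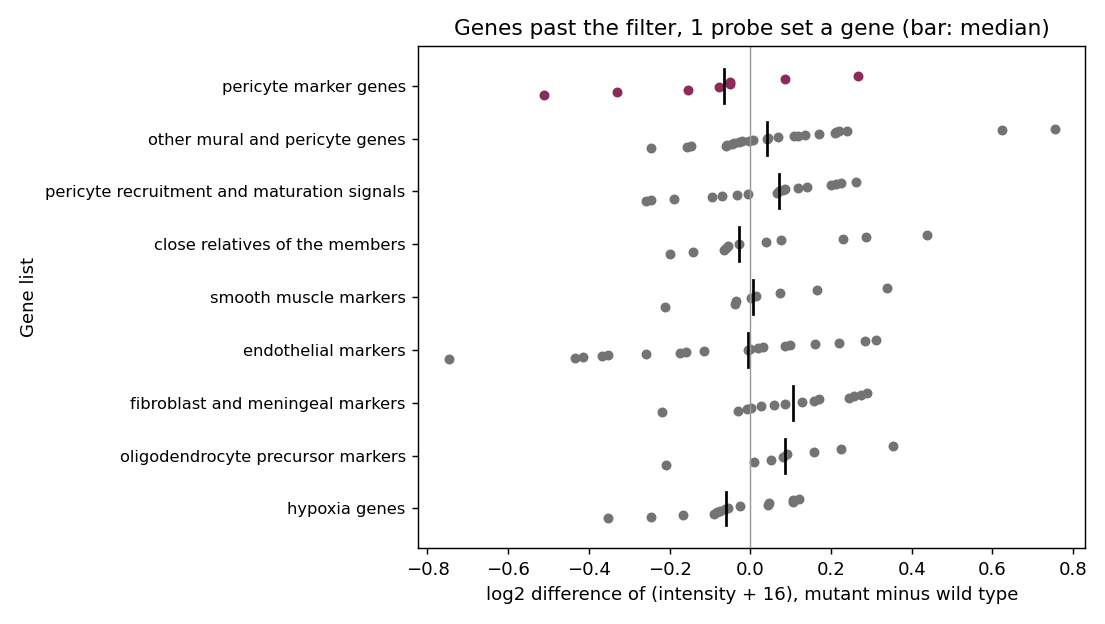
log2 difference in intensity plus 16, mutant minus wild type, of the genes past the filter in each list, with 1 point per gene on its brightest probe set and a bar for the median. The 8 tested pericyte markers run from -0.51 to 0.27 with a median of -0.06, and the medians of the other lists lie between -0.06 and 0.11.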

How the data were processed

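Total RNA of 6 whole-brain samples was labelled with biotin by the Affymetrix procedure, per the labels. Per column, the authors deposited MAS5 intensities (linear scale), per the submitters' processing notes, with version and genome build not given in the sources used here. The authors had scaled the arrays, and they were not scaled again. Of 45101 probe sets, 64 controls were left out. Names came from the platform annotation: 34945 probe sets had 1 gene symbol, 932 several and 9160 none listed.

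After adding 16 and taking log2, limma 3.58.1 under R 4.3.3 (lmFit, eBayes with trend, two-sided) was fitted to the 27022 probe sets whose mean reached the 40th percentile (13.5), with Benjamini-Hochberg adjustment and a threshold of 0.05. The fit was tested on simulated data. For dim genes, fold changes on this scale are understated. A gene is represented by its brightest probe set. All markers were named; in other lists, genes past the threshold, or else the 2 of largest absolute difference, and any close relative. Members and lists were chosen with earlier results of these data known. The number of arrays limits the precision. The offset, the filter, the scaling, the variance trend, a replicate block, 1 probe set per gene and each array were varied in turn. The replicate numbers in the labels were not used to pair arrays.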

Additional observations from a re-analysis of the deposited data

How the results depend on the processing

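Each alternative changed 1 choice, and under all 16 the count of marker probe sets past the threshold was 0, with a lowest adjusted p of 0.054. Over all probe sets the count of 200 became 52 without the filter, 80 with median centring, 14 without the variance trend, 47 with 1 probe set per gene and 105 with eBayes fitted on all probe sets before the filter, an alternative chosen after seeing the data. Leaving out 1 array gave 42 to 200 calls, with 42 without wild-type array 1, 55 without wild-type array 2, 77 without mutant array 2 and 46 without mutant array 3. The causes were not tested. Of the 16 tested marker probe sets, 11 kept their sign throughout. With arrays left out, Rgs5 1420941_at ran from -0.36 to 0.086, Kcnj8 from -0.15 to 0.026 (without mutant array 2), Cspg4 1423341_at from -0.37 to 0.018 (without mutant array 3), Higd1b from -0.13 to 0.091 and Ptn 1416211_a_at from -0.17 to 0.0036. Vtn 1420484_a_at turned to -0.000782 with median centring. The replicate number as a block gave 446 calls over all probe sets and changed no call of a marker, Pdgfrb, Ptn or Slco1c1. Same-numbered arrays had correlations of their deviations of 0.183, 0.132 and 0.0892, and each array correlated best with its own number, a hint from the data only, so the arrays were not paired. Close to the floor, intensities of Anpep, Cox4i2 and Atp13a5 limit what can be read.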
